A study of Mus musculus with 21 samples.

Results

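The mitochondrial 12S and 16S ribosomal RNAs were followed in a map of where the SR proteins SRSF3 and SRSF7 contact RNA in cytoplasm, nucleoplasm and chromatin of P19 cells, a mouse embryonal carcinoma line. The 2 RNAs are encoded by mt-Rnr1 (12S, chrM 70 to 1024 of mm9, 955 nt) and mt-Rnr2 (16S, chrM 1094 to 2675, 1582 nt), both on the plus strand. They were taken as every deposited chrM position with a positive value inside those coordinates, and they are 2 of 34919 regions, the others being nuclear stretches of neighbouring positions. The choice used the coordinates and no measured value of binding. Both are noncoding rRNA genes without introns.

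The cells expressed SRSF3-GFP or SRSF7-GFP, were exposed to ultraviolet light of 254 nm at 100 mJ/cm2, and were split into fractions before iCLIP. In iCLIP the light links a protein to RNA that it touches, the protein is purified, and each cDNA begins next to the linked nucleotide. The 6 groups are SRSF3 in cytoplasm, nucleoplasm and chromatin (4 replicates each) and SRSF7 in the same fractions (3 replicates each), 21 samples in all. The replicates of a group were pooled before deposit into 1 list of positions with a cDNA count each, so no spread between replicates is available and no p-value is given. No group without a tagged protein was analysed here. The labels used do not name the promoter of the fusion genes or the number of clones. The P19 label could not be checked against marker genes, and nothing says that replicates were separate cultures. The lists held 257089 cDNAs for SRSF3 cytoplasm, 315510 for SRSF3 nucleoplasm, 1768665 for SRSF3 chromatin, 367298 for SRSF7 cytoplasm, 275018 for SRSF7 nucleoplasm and 248498 for SRSF7 chromatin.

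12S rRNA is the RNA core of the small subunit of the mitochondrial ribosome and 16S rRNA that of the large subunit, which forms peptide bonds. Both are copied from mitochondrial DNA inside the organelle as parts of a long precursor, in which transfer RNAs lie between the longer RNAs and are cut out. SRSF3 and SRSF7 are encoded in the nucleus, act in splicing, and move between nucleus and cytoplasm to accompany mRNA export. A cDNA count reflects both the amount of RNA in the fraction and the binding per RNA, and these cannot be told apart here.

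Both rRNAs were among the most heavily listed RNAs of the cytoplasm and took a small share of chromatin. 16S rRNA (mt-Rnr2) held 13149 cDNAs in SRSF3 cytoplasm, 22509 in SRSF3 nucleoplasm and 1594 in SRSF3 chromatin. These were 5.11% of all listed cDNAs in cytoplasm (95% interval 5.03 to 5.20), 7.13% in nucleoplasm (7.04 to 7.22) and 0.0901% in chromatin (0.0858 to 0.0947). For SRSF7, 16S rRNA held 12504, 2786 and 307 cDNAs in cytoplasm, nucleoplasm and chromatin. The shares were 3.40% (3.35 to 3.46), 1.01% (0.976 to 1.05) and 0.124% (0.110 to 0.138). Nucleoplasm was thus the highest fraction for SRSF3 and an intermediate one for SRSF7. Intervals on shares are exact (Clopper-Pearson) and cover counting error only.

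12S rRNA (mt-Rnr1) held 7714 cDNAs in SRSF3 cytoplasm, 3069 in nucleoplasm and 677 in chromatin, or 3.00% (2.93 to 3.07), 0.973% (0.939 to 1.01) and 0.0383% (0.0354 to 0.0413) of the lists. For SRSF7 it held 8507, 536 and 59 cDNAs, or 2.32% (2.27 to 2.37), 0.195% (0.179 to 0.212) and 0.0237% (0.0181 to 0.0306). Its share therefore ran in the order cytoplasm, nucleoplasm, chromatin for both proteins, and the intervals of neighbouring fractions did not overlap. By cDNA count 16S rRNA ranked 2nd of 8267 listed regions in SRSF3 cytoplasm and 2nd of 12499 in SRSF7 cytoplasm. 12S rRNA ranked 3rd and 4th there. In nucleoplasm 16S rRNA ranked 2nd of 10609 for SRSF3 and 8th of 11351 for SRSF7, and 12S rRNA 8th and 61st. In chromatin 16S rRNA ranked 171st of 18230 regions for SRSF3 and 105th of 9107 for SRSF7, and 12S rRNA 451st and 396th.

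**Figure D1:**
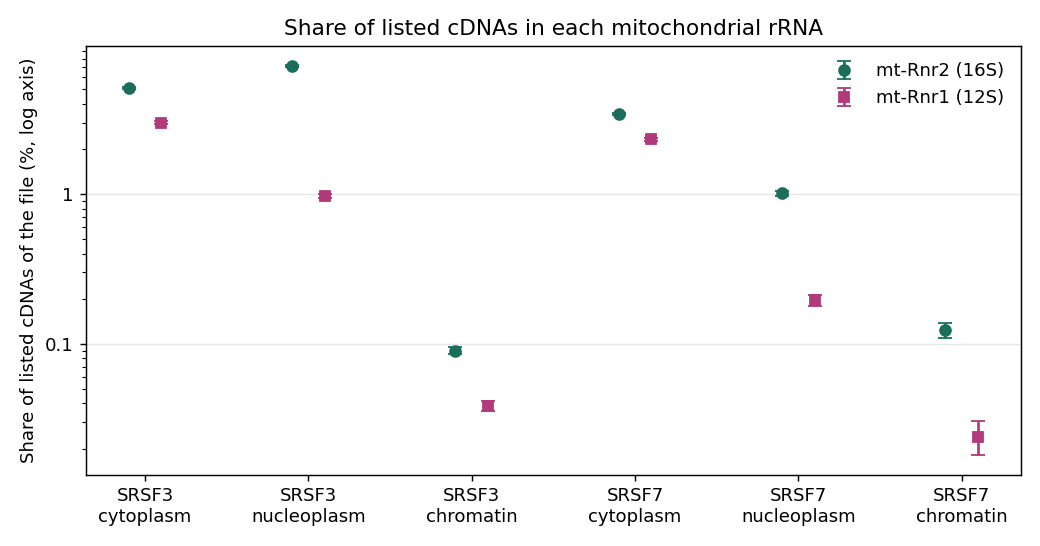
Share of all listed cDNAs (percent, log axis) in mt-Rnr2 (16S, circles) and mt-Rnr1 (12S, squares) in each of the 6 pooled lists, with 95% Clopper-Pearson intervals for counting error. Chromatin lies lowest for both RNAs and both proteins, and SRSF3 nucleoplasm is the only list in which the 16S share exceeds that of the cytoplasm of the same protein.

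The fraction comparisons ask how the share of a region in the lists of 1 protein differs between compartments. Each share is of the total of its own list, so the ratios do not give how contacts are divided among compartments. Ratios of shares carry 95% conditional exact intervals for counting error, and a region was counted as different when its whole interval lay beyond 2-fold. Cytoplasm over chromatin was 78.4 for 12S rRNA (72.5 to 84.9) and 56.8 for 16S rRNA (53.9 to 59.8) in SRSF3. Both rRNAs were beyond 2-fold higher, as were 38.0% of the 1050 regions compared (20.8% lower), whose median log2 ratio was 0.74. In SRSF7 the ratios were 97.6 for 12S rRNA (75.5 to 128.3) and 27.6 for 16S rRNA (24.6 to 30.96), again both higher, against 16.8% of 852 regions (22.3% lower), whose median log2 ratio was -0.01. The rRNAs ranked 5th (12S) and 8th (16S) from the top among the SRSF3 regions and 1st and 4th among those of SRSF7. In all comparisons the other regions were nuclear, so the rest of the mitochondrial genome was not ranked. Its plus strand after mt-Rnr2 held 16272 cDNAs in SRSF3 cytoplasm and 544 in SRSF3 chromatin, and 7488 and 205 in SRSF7. An excess in cytoplasm over chromatin was thus not particular to the rRNAs within chrM.

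By all listed cDNAs, nucleoplasm over chromatin separated the proteins more. In SRSF3 the ratio was 25.4 for 12S rRNA (23.4 to 27.7) and 79.2 for 16S rRNA (75.2 to 83.3), and that of 16S rRNA was the highest of 1778 regions compared. In SRSF7 it was 8.21 for 12S rRNA (6.27 to 10.9) and 8.20 for 16S rRNA (7.29 to 9.26). Both rRNAs were beyond 2-fold higher in each protein, with 31.6% of regions called higher in SRSF3 (17.2% lower) and 21.5% of 915 in SRSF7 (14.2% lower). With positions of at least 3 cDNAs the 12S ratio was 19.7 in SRSF3 (18.1 to 21.5) and 25.5 in SRSF7 (16.9 to 40.2). The higher 12S ratio of SRSF3 was thus not seen with that minimum, while the 16S ratios were 62.3 in SRSF3 and 16.2 in SRSF7.

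Between cytoplasm and nucleoplasm the RNAs parted. Cytoplasm over nucleoplasm was 3.08 for 12S rRNA in SRSF3 (2.96 to 3.22) and 11.9 in SRSF7 (10.9 to 13.0), so it was beyond 2-fold higher in both. For SRSF3, 8.36% of 921 regions were called higher and 16.8% lower. For SRSF7, 16.6% of 1248 were called higher and 22.6% lower. 16S rRNA had a ratio of cytoplasm over nucleoplasm of 0.717 in SRSF3 (0.702 to 0.733), within 2-fold, and of 3.36 in SRSF7 (3.23 to 3.50), beyond it. In log2 its SRSF3 ratio was -0.48, against a median of -0.31, and ranked 510th from the top of the 921 regions. Its SRSF7 ratio was 1.75 in log2, against a median of -0.37, and ranked 185th of 1248. The 2 rRNAs together took 8.12% of SRSF3 cytoplasm and 8.11% of SRSF3 nucleoplasm, a ratio of 1.001 (0.983 to 1.02), while they took 5.72% of SRSF7 cytoplasm and 1.21% of SRSF7 nucleoplasm, a ratio of 4.74 (4.57 to 4.91). The near equality in SRSF3 depended on the count used: the ratio of SRSF3 cytoplasm over nucleoplasm was 1.61 by listed positions (1.44 to 1.80) and 0.833 with positions of at least 3 cDNAs (0.818 to 0.849).

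The size of these ratios depended on counting cDNAs. Counted by listed positions, the 2 rRNAs together had a ratio of cytoplasm over chromatin of 21.9 in SRSF3 (19.2 to 25.0) and 2.10 in SRSF7 (1.75 to 2.53), and the SRSF7 ratio of nucleoplasm over chromatin was 1.003 (0.817 to 1.23). In SRSF3, nucleoplasm over chromatin by listed positions was 12.6 for 12S rRNA (9.99 to 15.9) and 14.1 for 16S rRNA (12.1 to 16.5), so the gap between the RNAs was not seen on that count. For the rRNAs together, cytoplasm over chromatin by all listed cDNAs was 63.2 in SRSF3 and 38.8 in SRSF7. With positions of at least 3 cDNAs it was 41.4 (39.6 to 43.3) and 70.3 (61.9 to 80.3), so the order of the proteins turned. The order turned for 16S rRNA too, at 37.1 in SRSF3 and 46.6 in SRSF7. For 12S rRNA SRSF7 was already higher by all listed cDNAs and stayed so, at 51.5 in SRSF3 and 282 in SRSF7. Cytoplasm over nucleoplasm by listed positions was 1.22 for 16S rRNA in SRSF3 (1.06 to 1.41), which turned its direction. In SRSF7 it was 2.538 for 12S rRNA (1.997 to 3.25) and 1.84 for 16S rRNA (1.52 to 2.23), so that neither call held. The lists differ in how many cDNAs a position carries. Listed 12S positions had a mean of 28.9, 15.7 and 5.46 cDNAs in SRSF3 cytoplasm, nucleoplasm and chromatin and 32.7, 5.70 and 1.74 in SRSF7. Positions with 1 cDNA made up 4.12%, 8.67% and 12.1% of them in SRSF3 and 5.0%, 22.3% and 61.8% in SRSF7.

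The same shares were then set side by side for the proteins. In cytoplasm SRSF3 over SRSF7 was 1.30 for 12S rRNA (1.26 to 1.34) and 1.502 for 16S rRNA (1.47 to 1.54), both within 2-fold, with 14.0% of 866 regions called higher in SRSF3 and 20.7% lower. In nucleoplasm the ratios were 4.99 for 12S rRNA (4.55 to 5.48) and 7.04 for 16S rRNA (6.77 to 7.33), both beyond 2-fold higher, as were 12.8% of 1093 regions, while 18.3% were called lower. In chromatin they were 1.61 for 12S rRNA (1.23 to 2.14) and 0.730 for 16S rRNA (0.645 to 0.827), and neither interval lay wholly beyond 2-fold. There 21.4% of 1358 regions were called higher in SRSF3 and 17.2% lower. By listed positions the cytoplasm ratios were 2.493 for 12S rRNA (2.09 to 2.97) and 2.29 for 16S rRNA (1.96 to 2.69), and the nucleoplasm ratios 2.491 (1.94 to 3.22) and 3.45 (2.88 to 4.15). With positions of at least 3 cDNAs the cytoplasm ratios were 0.977 (0.947 to 1.008) and 1.14 (1.11 to 1.16). The 12S excess of SRSF3 in cytoplasm was thus not seen with that minimum. The nucleoplasm ratios were then 4.14 and 5.48. The chromatin order was not stable: with positions of at least 3 cDNAs the ratios were 5.36 for 12S rRNA (3.57 to 8.43) and 1.42 for 16S rRNA (1.23 to 1.65), and by listed positions 0.319 (0.217 to 0.481) and 0.201 (0.161 to 0.253). The track names of the 3 SRSF7 lists hold a term for regions treated as one and the SRSF3 names do not, so protein and peak calling cannot be told apart in these ratios.

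**Figure D2:**
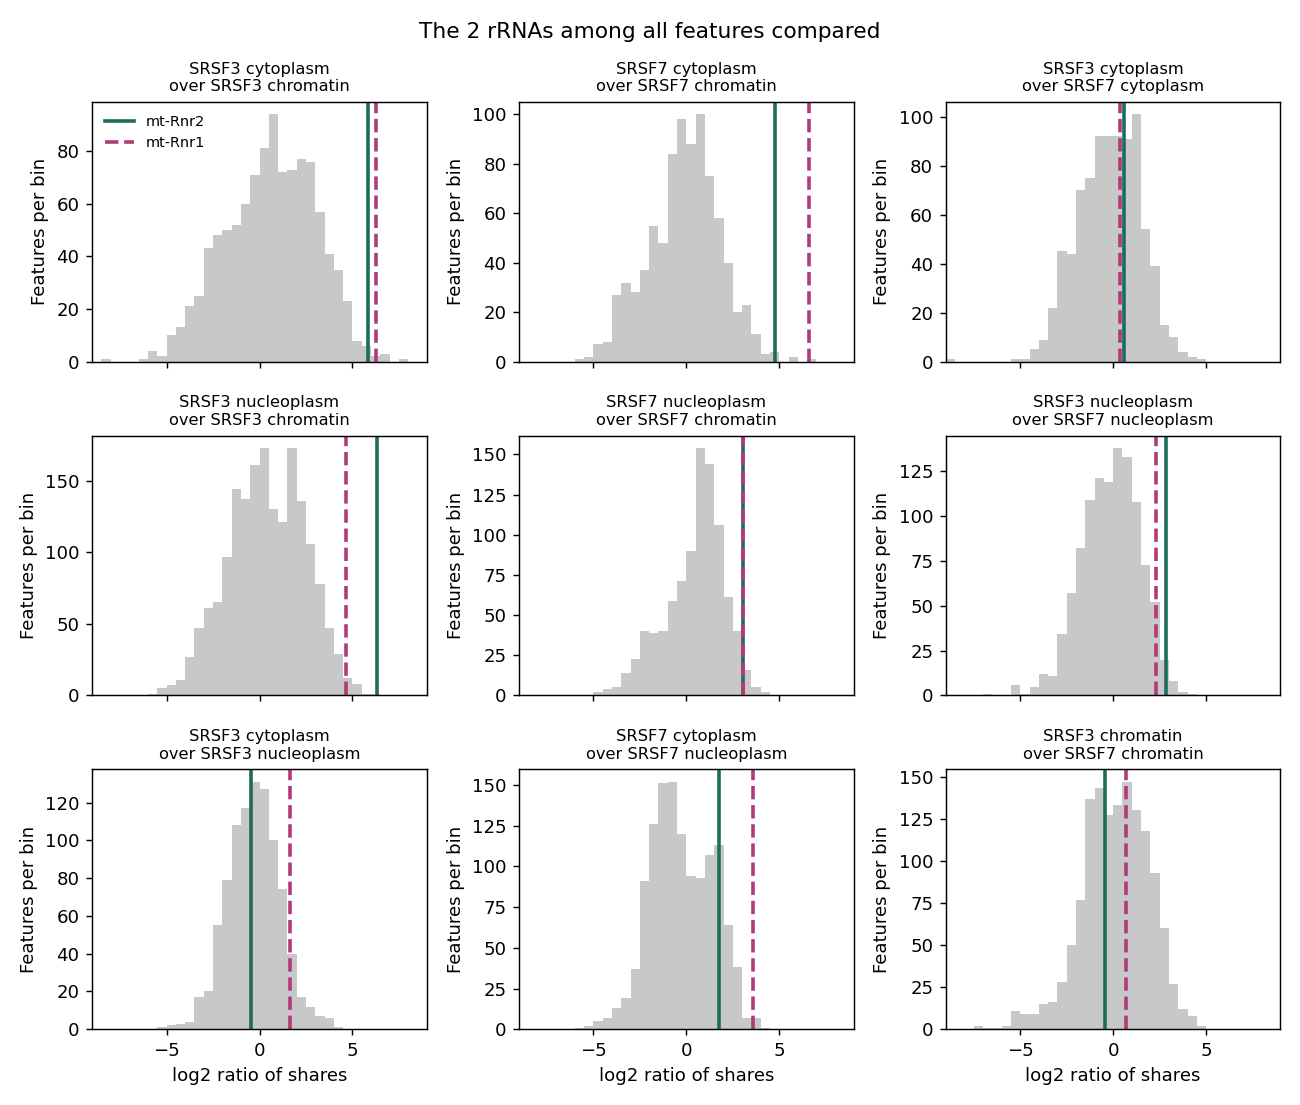
Number of regions per bin of 0.5 (vertical axis) by log2 ratio of shares (horizontal axis) in each of the 9 comparisons, with mt-Rnr2 (16S, solid line) and mt-Rnr1 (12S, dashed line) marked. Both lines stand at the right edge for cytoplasm over chromatin, at log2 ratios of 5.83 (16S) and 6.29 (12S) in SRSF3 and 4.78 and 6.61 in SRSF7, and inside the bulk for SRSF3 over SRSF7 in cytoplasm and chromatin.

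Levels of the 2 rRNAs were compared with each other per nucleotide of gene. 16S rRNA carried 8.31 cDNAs per nt and 12S rRNA 8.08 in SRSF3 cytoplasm, a ratio of 1.03 (1.0004 to 1.06). In SRSF7 cytoplasm the values were 7.90 and 8.91, a ratio of 0.887 (0.863 to 0.912). The RNAs of the large and small subunits thus had nearly the same density of listed cDNAs in both cytoplasm lists. In nucleoplasm 16S rRNA stood above 12S rRNA, with 14.2 against 3.21 cDNAs per nt in SRSF3, a ratio of 4.43 (4.26 to 4.60), and 1.76 against 0.561 in SRSF7, a ratio of 3.14 (2.86 to 3.45). In chromatin the ratio was 1.42 in SRSF3 (1.30 to 1.56) and 3.14 in SRSF7 (2.37 to 4.22). By listed positions the ratio in SRSF3 cytoplasm turned to 0.703 (0.595 to 0.831), and that in SRSF7 cytoplasm was 0.764 (0.647 to 0.902). In nucleoplasm the ratio by listed positions was 1.46 in SRSF3 (1.23 to 1.73) and 1.05 in SRSF7 (0.812 to 1.37). In SRSF7 chromatin it was 2.06 by listed positions (1.39 to 3.11) and 5.38 with positions of at least 3 cDNAs (3.52 to 8.59).

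Within the mitochondrial genome the rRNAs took their highest share in nucleoplasm. They held 48.6% of all chrM cDNAs in SRSF3 cytoplasm (48.1 to 49.1), 82.8% in SRSF3 nucleoplasm (82.4 to 83.2) and 65.4% in SRSF3 chromatin (63.8 to 67.0). In SRSF7 they held 64.4% in cytoplasm (63.9 to 64.9), 83.8% in nucleoplasm (82.6 to 84.9) and 45.8% in chromatin (42.3 to 49.3). In cytoplasm 16S rRNA alone made up 30.6% of chrM cDNAs for SRSF3 and 38.3% for SRSF7, against 72.9% and 70.3% in nucleoplasm. By listed positions the rRNAs took 20.3%, 34.3% and 59.8% in SRSF3 cytoplasm, nucleoplasm and chromatin and 30.2%, 58.8% and 55.4% in SRSF7, so nucleoplasm was no longer the highest in SRSF3. On the opposite strand of the 2 genes, 0 positions were listed in any of the 6 lists. The minus strand elsewhere on chrM carried between 92 and 4413 cDNAs per list, the first at position 3795, so the listed signal over the rRNA genes lay on the strand of the genes throughout.

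The cDNAs were concentrated on part of each RNA. Listed positions numbered 267, 196 and 124 of the 955 nt of 12S rRNA in SRSF3 cytoplasm, nucleoplasm and chromatin, and 260, 94 and 34 in SRSF7. For 16S rRNA they numbered 311, 474 and 267 of 1582 nt in SRSF3 and 329, 164 and 116 in SRSF7. When the positions of all 6 lists were joined at gaps of up to 15 nt, they formed 7 stretches covering 44.2% of 12S rRNA and 15 covering 45.4% of 16S rRNA. The longest parts with no position in any list were nucleotides 484 to 728 of 12S rRNA (245 nt) and 880 to 1092 of 16S rRNA (213 nt), counting from the 5′ end of each RNA. A part that is not listed is not shown to be unbound, because listing depended on how many cDNAs lay nearby. In SRSF3, the listed cDNAs within 15 nt of a listed 12S position had a median of 823 in cytoplasm and 130.5 in chromatin. The SRSF7 medians were 673 in cytoplasm and 22 in chromatin.

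12S rRNA showed different profiles in chromatin and in the other fractions. A stretch at nucleotides 729 to 835, in the 3′ part of the RNA (chrM 798 to 904), held 241 cDNAs in SRSF3 cytoplasm, 62 in SRSF3 nucleoplasm and 540 of 677 in SRSF3 chromatin, or 3.12% (2.75 to 3.54), 2.02% (1.55 to 2.58) and 79.8% (76.5 to 82.7) of the 12S cDNAs. In SRSF7 it held 132 in cytoplasm and 50 of 59 in chromatin, or 1.55% (1.30 to 1.84) and 84.7% (73.0 to 92.8), and it had no listed position in nucleoplasm. Most 12S cDNAs of both chromatin lists thus lay in a stretch that held a small part of the 12S cDNAs elsewhere. It was chosen after the profiles were seen, and its values are a description.

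As a share of the whole list the stretch took 0.0937% of SRSF3 cytoplasm (0.0823 to 0.106), 0.0197% of SRSF3 nucleoplasm (0.0151 to 0.0252) and 0.0305% of SRSF3 chromatin (0.0280 to 0.0332). In SRSF7 it took 0.0359% of cytoplasm (0.0301 to 0.0426) and 0.0201% of chromatin (0.0149 to 0.0265), with no listed position in nucleoplasm. Counted by cDNAs, its list share was therefore highest in cytoplasm and lowest in nucleoplasm for both proteins. By listed positions chromatin was the highest in SRSF7, with 28 of 76172 positions against 7 of 142444 in cytoplasm. In SRSF3 the stretch had 15 of 58686 listed positions in cytoplasm, 8 of 109400 in nucleoplasm and 97 of 870234 in chromatin. The listed parts of the stretch differed between the fractions. Nucleotides 820 to 835 held all of its listed cDNAs in cytoplasm and nucleoplasm, that is 241 in SRSF3 cytoplasm and 62 in SRSF3 nucleoplasm, against 76 in SRSF3 chromatin. In SRSF7 these nucleotides held 132 in cytoplasm, against 6 in chromatin. Nucleotides 729 to 819 had no listed position in any cytoplasm or nucleoplasm list, while in chromatin they held 464 cDNAs for SRSF3, or 0.0262% of the list (0.0239 to 0.0287), and 44 for SRSF7, or 0.0177% (0.0129 to 0.0238). This part was set as the one listed in chromatin only, so its absence from the other lists follows from that choice. Here too an unlisted part is not shown to be unbound. The lowest sum of listed cDNAs within 15 nt of a listed 12S position differed between lists. It was 57, 19 and 3 in SRSF3 cytoplasm, nucleoplasm and chromatin and 132, 5 and 9 in SRSF7. Outside nucleotides 729 to 835, 12S rRNA was sparsely listed in chromatin. Nucleotides 862 to 938, next to the 3′ end (chrM 931 to 1007), held 2049 cDNAs in SRSF3 cytoplasm, 591 in SRSF3 nucleoplasm, 2417 in SRSF7 cytoplasm and 353 in SRSF7 nucleoplasm, and had no listed position in either chromatin list. This stretch made up 19.3% of the 12S cDNAs in SRSF3 nucleoplasm (17.9 to 20.7), against 65.9% in SRSF7 nucleoplasm (61.7 to 69.9).

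The 5′ part of 12S rRNA carried most of its listed cDNAs in cytoplasm. Nucleotides 254 to 320 held 33.3% of 12S cDNAs in SRSF3 cytoplasm, 38.2% in SRSF3 nucleoplasm and 3.10% in SRSF3 chromatin, and 33.4% in SRSF7 cytoplasm and 19.4% in SRSF7 nucleoplasm, with none listed in SRSF7 chromatin. Nucleotides 352 to 441 were the only 12S stretch listed in all 6 lists, with 26.5%, 20.98% and 16.7% in SRSF3 cytoplasm, nucleoplasm and chromatin and 26.4%, 13.8% and 15.3% in SRSF7. Nucleotides 51 to 106, near the 5′ end, held 9.77% in SRSF3 cytoplasm, 15.7% in SRSF3 nucleoplasm and 3.64% in SRSF7 cytoplasm and were not listed in the other 3.

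**Figure D3:**
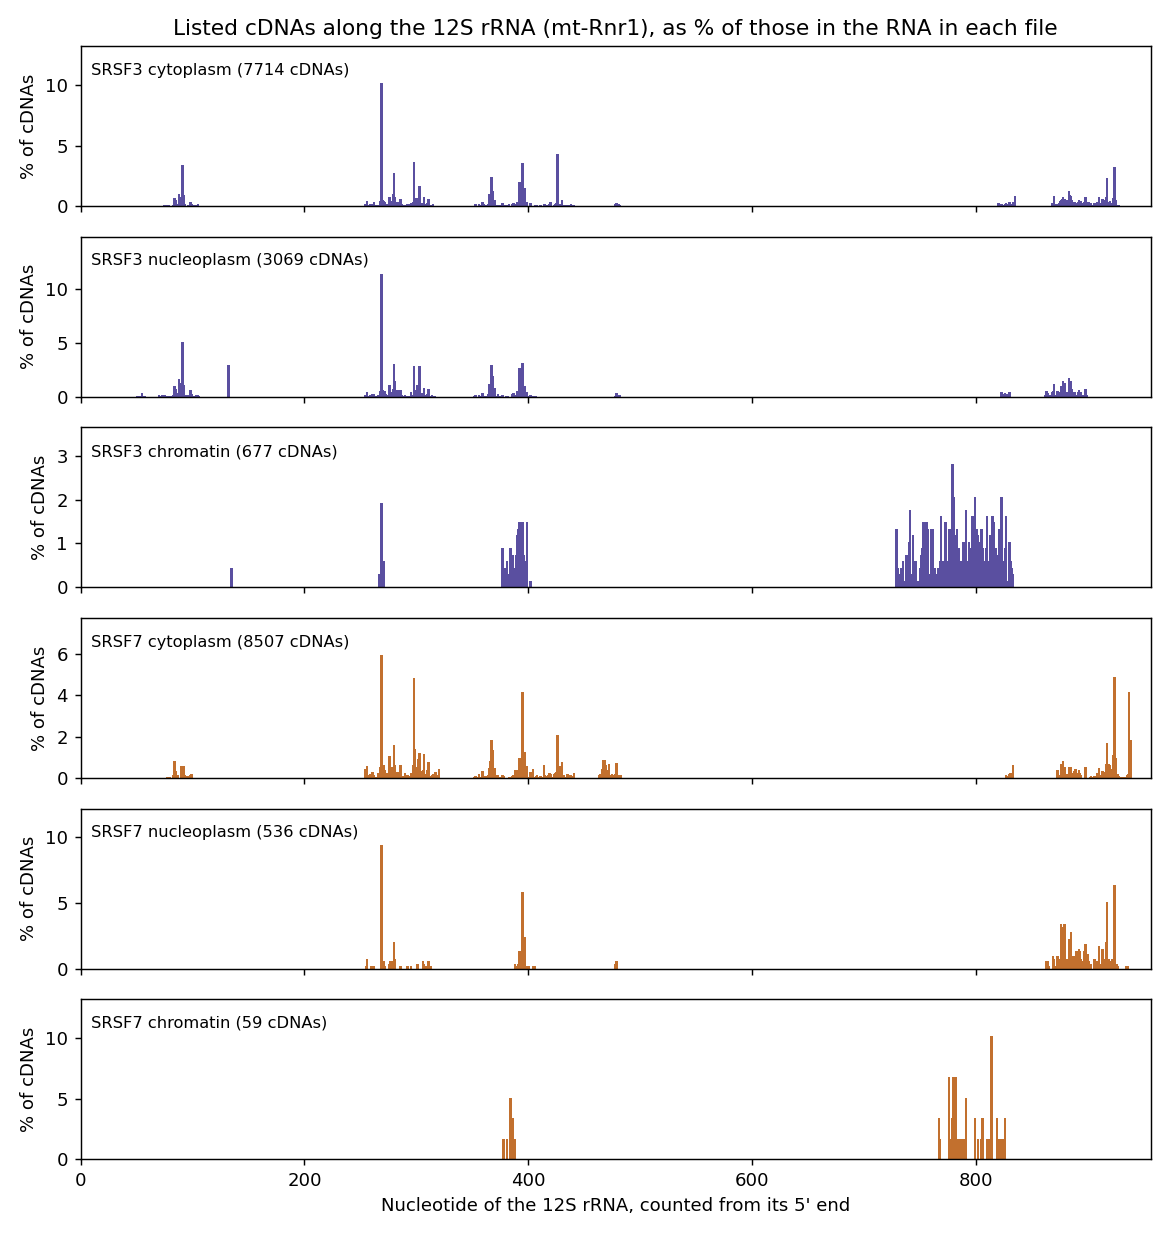
Listed cDNAs at each nucleotide of 12S rRNA (horizontal axis, counted from the 5′ end) as a percentage of the 12S cDNAs of the list (vertical axis, scaled per panel), SRSF3 in the upper 3 panels and SRSF7 in the lower 3. The 4 cytoplasm and nucleoplasm panels share a peak at nucleotide 269, while both chromatin panels have most of their cDNAs between nucleotides 729 and 835.

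Single nucleotides recurred as the tallest of 12S rRNA. Nucleotide 269 (chrM 338) was the tallest in 4 lists, with 786 cDNAs in SRSF3 cytoplasm, 351 in SRSF3 nucleoplasm, 508 in SRSF7 cytoplasm and 50 in SRSF7 nucleoplasm. These were 10.2%, 11.4%, 5.97% and 9.33% of the 12S cDNAs, while SRSF3 chromatin had 13 cDNAs there (1.92%) and SRSF7 chromatin did not list it. Nucleotide 395 (chrM 464) had 277, 97 and 10 cDNAs in SRSF3 cytoplasm, nucleoplasm and chromatin and 353 and 31 in SRSF7 cytoplasm and nucleoplasm. Nucleotide 924 (chrM 993) had 248 in SRSF3 cytoplasm, against 415 in the cytoplasm and 34 in the nucleoplasm of SRSF7. Nucleotide 298 (chrM 367) had 278 in SRSF3 cytoplasm, 86 in SRSF3 nucleoplasm and 414 in SRSF7 cytoplasm. Nucleotide 395 thus appeared in 5 lists, and nucleotides 298 and 924 in 3. Nucleotide 91 (chrM 160) had 264 and 157 cDNAs in SRSF3 cytoplasm and nucleoplasm and was listed in no SRSF7 list. Nucleotide 426 (chrM 495) had 332 cDNAs in SRSF3 cytoplasm, against 178 in that of SRSF7, and was listed in neither nucleoplasm nor chromatin of either protein. In SRSF3 chromatin the tallest was nucleotide 779 (chrM 848) with 19 cDNAs, followed by nucleotides 780 and 799 with 14 each. In SRSF7 chromatin it was nucleotide 814 (chrM 883) with 6, followed by nucleotides 776 and 780 with 4 each. The 3 tallest held 18.1% of the 12S cDNAs in SRSF3 cytoplasm, against 6.94% in SRSF3 chromatin, where counts were spread more evenly. In SRSF7 the 3 tallest held 15.7% in cytoplasm and 23.7% of the 59 cDNAs in chromatin.

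Of the joined 16S stretches, the one nearest the 3′ end held the most listed cDNAs in every list. Nucleotides 1430 to 1574 (chrM 2523 to 2667), which end just before the 3′ terminus, held 6593 cDNAs in SRSF3 cytoplasm, 7907 in SRSF3 nucleoplasm and 920 in SRSF3 chromatin, or 50.1% (49.3 to 51.0), 35.1% (34.5 to 35.8) and 57.7% (55.2 to 60.2) of the 16S cDNAs. For SRSF7 the counts were 5544, 1864 and 231, or 44.3% (43.5 to 45.2), 66.9% (65.1 to 68.7) and 75.2% (70.0 to 80.0). This stretch is 145 of 1582 nt. By listed positions its part of 16S rRNA ran from 20.7% in SRSF7 cytoplasm to 71.6% in SRSF7 chromatin. It held 2.56% of all listed cDNAs in SRSF3 cytoplasm, 2.51% in SRSF3 nucleoplasm and 0.0520% in SRSF3 chromatin, and 1.51%, 0.678% and 0.0930% in SRSF7. Nucleotides 1401 to 1500, which overlap the 5′ part of the stretch, differed between the fractions, with 8.37% of 16S cDNAs in SRSF3 cytoplasm and 25.6% in SRSF3 chromatin, and no listed position in SRSF7 cytoplasm against 21.5% in SRSF7 chromatin.

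**Figure D4:**
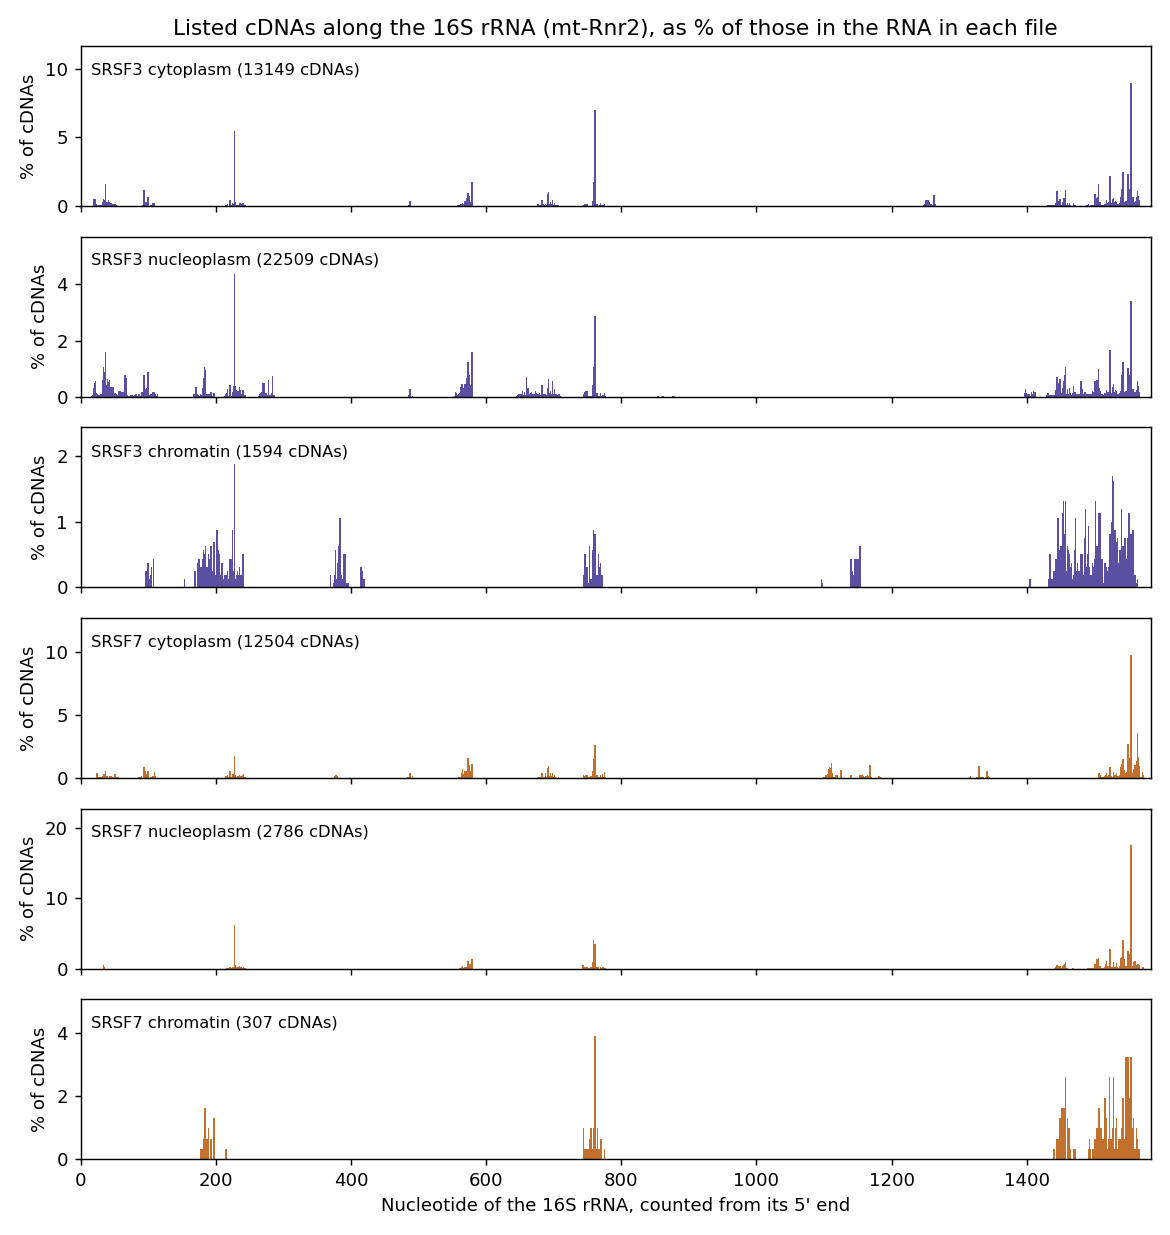
Listed cDNAs at each nucleotide of 16S rRNA (horizontal axis, counted from the 5′ end) as a percentage of the 16S cDNAs of the list (vertical axis, scaled per panel), SRSF3 in the upper 3 panels and SRSF7 in the lower 3. All 6 panels have a group of positions between nucleotides 1430 and 1574, and nucleotides 880 to 1092 are empty in all of them.

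Within that stretch nucleotide 1554 (chrM 2647) was the tallest of 16S rRNA in 3 lists. It had 1181 cDNAs in SRSF3 cytoplasm, 766 in SRSF3 nucleoplasm and 13 in SRSF3 chromatin, and 1223, 489 and 10 in SRSF7. As a share of the 16S cDNAs this was 8.98%, 3.40% and 0.816% in SRSF3 and 9.78%, 17.6% and 3.26% in SRSF7, so it was lowest in chromatin for both proteins. Nucleotide 1550 (chrM 2643) had 303, 228 and 9 cDNAs in SRSF3 and 341, 69 and 10 in SRSF7. Nucleotide 1564 (chrM 2657) had 141 cDNAs or 1.07% of the 16S cDNAs in SRSF3 cytoplasm, against 442 or 3.53% in SRSF7 cytoplasm. In SRSF3 chromatin the tall nucleotides of the stretch lay further upstream, at 1527 and 1528, with 27 and 26 cDNAs, and nucleotide 1547 had 10 in SRSF7 chromatin.

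A further peak lay in the 5′ part, at nucleotide 228 of 16S rRNA (chrM 1321). It had 717 cDNAs in SRSF3 cytoplasm, 988 in SRSF3 nucleoplasm and 30 in SRSF3 chromatin, and was the tallest of the RNA in the last 2. In SRSF7 it had 215 in cytoplasm and 174 in nucleoplasm and was not listed in chromatin. The stretch around it, nucleotides 154 to 244, was listed in all 6 lists and held between 6.09% (SRSF7 cytoplasm) and 21.2% (SRSF3 chromatin) of the 16S cDNAs. Near the middle of the RNA, nucleotide 761 (chrM 1854) had 918, 649 and 13 cDNAs in SRSF3 cytoplasm, nucleoplasm and chromatin and 328, 96 and 12 in SRSF7. It was the tallest position of SRSF7 chromatin, and its neighbour 759 was the third tallest of SRSF7 nucleoplasm with 114 cDNAs. Its stretch, nucleotides 743 to 776, held between 7.37% (SRSF3 nucleoplasm) and 15.6% (SRSF7 chromatin).

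Other 16S stretches were listed in some fractions or for 1 protein. Nucleotides 17 to 114, at the 5′ end, held 1574 cDNAs in SRSF3 cytoplasm, 4452 in SRSF3 nucleoplasm and 37 in SRSF3 chromatin, and 1138 and 22 in SRSF7 cytoplasm and nucleoplasm. They made up 19.8% of 16S cDNAs in SRSF3 nucleoplasm and 0.790% in SRSF7 nucleoplasm. Nucleotides 554 to 579 held between 6.39% and 9.36% in the 4 cytoplasm and nucleoplasm lists and were listed in neither chromatin. Nucleotides 646 to 710 were listed in both cytoplasms and in SRSF3 nucleoplasm, with 712, 1889 and 709 cDNAs in SRSF3 cytoplasm, SRSF3 nucleoplasm and SRSF7 cytoplasm. Nucleotides 1093 to 1183 held 67 cDNAs in SRSF3 chromatin and 1409 in SRSF7 cytoplasm, or 4.203% and 11.3%, and were in none of the other 4 lists. Nucleotides 263 to 286 held 889 cDNAs in SRSF3 nucleoplasm and were in no other list.

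Cytoplasm lists of the proteins overlapped widely, and chromatin shared few 12S positions with the other fractions. Of the 16S positions, 228 were listed in cytoplasm for both proteins, which is 73.3% of the SRSF3 ones and 69.3% of the SRSF7 ones. For 12S rRNA the number was 233, or 87.3% and 89.6%. In chromatin 34 positions of 12S rRNA were common, which is all of those listed for SRSF7 and 27.4% of those for SRSF3. SRSF3 cytoplasm and SRSF3 nucleoplasm had 178 of the 12S positions in common, 66.7% of the cytoplasmic and 90.8% of the nucleoplasmic ones. SRSF3 cytoplasm and SRSF3 chromatin had 39 of the 12S positions in common, 14.6% of the cytoplasmic and 31.5% of the chromatin ones. SRSF7 cytoplasm and SRSF7 chromatin had 5, or 1.92% and 14.7%. Positions in all 6 lists numbered 59 in 16S rRNA and 1 in 12S rRNA. The 59 held 43.9%, 23.2% and 29.5% of the 16S cDNAs in SRSF3 cytoplasm, nucleoplasm and chromatin and 43.4%, 64.8% and 60.6% in SRSF7. How many positions a list holds sets how many can be shared, and this was not corrected for.

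Profiles were also compared over windows of 50 nt. Over the 20 windows of 12S rRNA, the chromatin profiles of the proteins correlated with r = 0.97 (Pearson) and rho = 0.73 (Spearman), and the cytoplasm profiles with r = 0.93 and rho = 0.95. SRSF7 chromatin had cDNAs in 3 of these 20 windows, and 12 windows had cDNAs in any list, so the values rest partly on empty windows. A chromatin list against a cytoplasm or nucleoplasm list gave r between -0.11 and 0.00 in the 8 such pairs, with rho between -0.04 and 0.32. Over all 15 pairs the median r for 12S rRNA was -0.004, and 0.22 with log2(cDNAs + 1). Over the 32 windows of 16S rRNA the 8 pairs gave r between 0.39 and 0.81, the chromatin lists 0.88 and the cytoplasm lists 0.85. Windows belong to 1 RNA and are not replicates, so no p is given. The window with the most 12S cDNAs was nucleotides 251 to 300 in both cytoplasms and in SRSF3 nucleoplasm, 851 to 900 in SRSF7 nucleoplasm and 751 to 800 in both chromatins. The 3 leading windows held between 59.1% (SRSF3 cytoplasm) and 100% (SRSF7 chromatin) of the 12S cDNAs. For 16S rRNA the leading window was nucleotides 1501 to 1550, except in SRSF7 cytoplasm, where it was 1551 to 1582.

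Nuclear regions with a similar distribution over the 6 lists were sought among the 588 that had at least 10 cDNAs in each. The measure was the root mean square difference of centred log2 shares over the 6 lists, which was 0.88 between the 2 rRNAs. The closest region to the rRNAs together was chr13:23646903-23674868 (plus strand, mm9), with a difference of 0.995. It was followed by chr17:35970422-35980690 (minus strand), with 1.06, and chr10:56096419-56111527 (plus strand), with 1.12. The median over the 588 regions was 2.57. The chromosome 13 region held 0.224%, 0.207% and 0.0175% of SRSF3 cytoplasm, nucleoplasm and chromatin and 0.137%, 0.0894% and 0.0133% of SRSF7, so it too was lowest in chromatin. No nuclear region came as close to either rRNA as the rRNAs to each other.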

How the data were processed

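Each deposited value is a signed whole-number score per nucleotide. The authors pooled replicates per group (per the labels) and listed positions called with 100 permutations, a neighbourhood of 15 nt and a false discovery rate below 0.05 (per the file headers). The size of the score was read as a cDNA count and its sign as the strand, which is an inference. No aligner, peak caller or rule for reads that fit several places is named in the labels. Coordinates are 1-based on mm9, per the submitters' processing notes. Listed totals per group ran from 248498 to 1768665 cDNAs, and all intervals cover counting error only.

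Shares are of all listed cDNAs of a list. Nuclear regions are positions of any list joined across gaps of at most 10000 nt per strand, compared with at least 50 cDNAs in both lists together and at least 10 in each. Named positions are the 3 tallest per RNA and list, ties taken in order along the RNA, and like regions the 3 closest. Stretches were chosen after the profiles were seen, and the members, lists and rules with earlier results of these data known. The region comparison was run on simulated Poisson counts with known changes. These hold only the counting error that the intervals assume, so the run does not cover replicate spread or the listing of positions. Alternatives changed the minimum count, the unit counted, the denominator, the tallest position, the window and the joining of regions. Gene names come from RefSeq's table for GRCm38.p6. Tools were Python 3.11.15 with scipy 1.17.1, pandas 2.3.3, numpy 2.4.6 and, for plots, matplotlib 3.10.9.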

Additional observations from a re-analysis of the deposited data

Results flagged for a closer look

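16S rRNA (mt-Rnr2) differed in direction between the proteins when cytoplasm was set over nucleoplasm. The ratio of its share in cytoplasm over that in nucleoplasm was 0.717 in SRSF3 (5.11% and 7.13%) and 3.36 in SRSF7 (3.40% and 1.01%). The SRSF3 value lay near the middle of the regions compared, 510th from the top of 921, and the SRSF7 value was 185th of 1248. The difference between the proteins was not tested, because each group is 1 pooled list. By listed positions the SRSF3 ratio was 1.22 (1.06 to 1.41), on the same side as that of SRSF7.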

How the results depend on the processing

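No paired analysis was possible because the replicates were pooled before deposit, and for the same reason no replicate could be left out. Values below run cytoplasm, nucleoplasm, chromatin, and the causes of the changes were not tested. With positions of at least 3 cDNAs, the rRNAs together took 10.3%, 12.4% and 0.249% of listed cDNAs in SRSF3, 9.61% and 2.34% in SRSF7 cytoplasm and nucleoplasm, and 49.9%, 85.3% and 67.5% (SRSF3) and 66.1%, 87.0% and 41.7% (SRSF7) of mitochondrial ones. SRSF3 over SRSF7 in chromatin was then 5.36 for 12S rRNA, 1.42 for 16S rRNA and 1.82 for both, the last 2 reversed. By listed positions the shares were 0.985%, 0.612% and 0.0449% (SRSF3) and 0.413%, 0.1974% and 0.1969% (SRSF7), and the mitochondrial shares 20.3%, 34.3% and 59.8% and 30.2%, 58.8% and 55.4%. Without the nuclear region of highest mean share the shares were 10.4%, 9.73% and 0.142% and 6.92%, 1.29% and 0.183%. Without the tallest position of each RNA they were 7.41% and 7.72% in SRSF3 and 5.27% and 1.01% in SRSF7 cytoplasm and nucleoplasm. Neither of these 2 settings turned or ended a call in the 27 ratios of shares.

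Listed positions turned 16S over 12S rRNA per nt in SRSF3 cytoplasm (0.703), cytoplasm over nucleoplasm of 16S rRNA in SRSF3 (1.22) and SRSF3 over SRSF7 in chromatin for 12S rRNA (0.319). They ended the calls, in SRSF7, of cytoplasm over chromatin (16S 1.52, both 2.10), nucleoplasm over chromatin (12S 1.61, 16S 0.824, both 1.003) and cytoplasm over nucleoplasm (12S 2.538, 16S 1.84, both 2.09), of SRSF3 over SRSF7 in nucleoplasm for 12S rRNA (2.491), and of 16S over 12S rRNA per nt in SRSF7 nucleoplasm (1.05). SRSF3 over SRSF7 passed 2-fold in cytoplasm for 12S rRNA (2.493) and both (2.38) and in chromatin for 16S rRNA (0.201) and both (0.228).

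The minimum count and the joining also change how many regions are compared. That number is not given here, so the counts below carry no share and do not show fewer differences. With at least 200 cDNAs, regions called higher were 143 (SRSF3) and 88 (SRSF7) for cytoplasm over chromatin and 147 and 85 for nucleoplasm over chromatin. They were 34 and 116 for cytoplasm over nucleoplasm, and 52 and 60 for SRSF3 over SRSF7 in cytoplasm and nucleoplasm. Regions called lower were 97 for SRSF7 cytoplasm over chromatin, 75 for SRSF7 nucleoplasm over chromatin, 75 and 128 for cytoplasm over nucleoplasm in SRSF3 and SRSF7, and 99, 93 and 113 for SRSF3 over SRSF7 in the 3 fractions. With joining at 1000 nt, 159 were higher for SRSF3 over SRSF7 in chromatin, and 121 and 185 lower for cytoplasm and nucleoplasm over chromatin in SRSF3. In stretches examined after the data were seen, nucleotides 729 to 835 held 78.2% to 80.0% of 12S cDNAs in SRSF3 chromatin and 82.4% to 87.5% in SRSF7 chromatin over the alternatives. By listed positions, nucleotides 1430 to 1574 held 20.7% of the 16S positions in SRSF7 cytoplasm.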

Other observations

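The tRNA genes that border the rRNAs were listed too, on the same strand. RefSeq's table for GRCm38.p6 places TrnF before mt-Rnr1, TrnV between the rRNA genes and TrnL1 after mt-Rnr2, and the values below are for the 69 nt on each side of, and between, the genes. The 69 nt after mt-Rnr2 had 36.2 cDNAs per nt in SRSF3 cytoplasm, 0.870 in SRSF3 nucleoplasm and 1.49 in SRSF3 chromatin, against 8.31, 14.2 and 1.01 within 16S rRNA. In SRSF7 they had 20.3, 1.09 and 0.797, against 7.90, 1.76 and 0.194 within it. These nucleotides thus lay above 16S rRNA per nt in cytoplasm and chromatin and below it in nucleoplasm, for both proteins. The 69 nt between the genes had 10.1, 4.26 and 2.26 cDNAs per nt in SRSF3 cytoplasm, nucleoplasm and chromatin and 7.0, 0.652 and 0.826 in SRSF7. For the 69 nt before mt-Rnr1 the SRSF3 values were 10.1, 0.638 and 2.33 and the SRSF7 values 9.33, 0.188 and 1.14. In chromatin all 3 bordering stretches exceeded both rRNAs per nt, for both proteins.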
